A study of Mus musculus with 36 samples.

Results

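The genes described here were the Notch receptors Notch1, Notch2 and Notch4, the Notch ligands Dll4, Jag1 and Jag2, and Hes1, Hey1, Hey2 and Heyl, the transcriptional repressors that Notch signaling is known to switch on. They were taken by gene symbol and made up 10 of the 53379 genes counted in mouse kidneys and tumors carrying the ASPSCR1-TFE3 fusion, the gene fusion that drives some translocation renal cell carcinomas. The list was chosen by pathway, with levels and fold changes of these genes in the same comparisons in view, so the fits below are given as a description and are not independent tests. RNA was sequenced from formalin-fixed, paraffin-embedded tissue without depletion of ribosomal RNA.

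The 36 libraries fell into 7 groups. From 6 Sglt2-Cre; ASPSCR1-TFE3 LSL/+ mice came 11 libraries of kidney tumor (6 mice), 4 of retro-orbital tumor (4 mice), 3 of brain tumor (3 mice) and 4 of non-transformed kidney (4 mice). The control kidneys were 6 libraries of 3 Sglt2-Cre mice without the fusion allele. The fetal kidneys were 5 dysmorphic kidneys of Pax8-Cre; ASPSCR1-TFE3 LSL/+ fetuses and 3 control fetal kidneys, which the sample labels call Pax8-Cre and the series text calls Pax8-Cre or ASPSCR1-TFE3 LSL/+. LSL/+ means that a stop cassette flanked by loxP sites blocks the single fusion allele until Cre removes it. Both Cre drivers are kidney-lineage promoters, Sglt2 being the glucose transporter of the proximal tubule and Pax8 a factor of the developing nephron. Ages were not given in the sources used here. Libraries whose titles share a stem were taken as coming from the same mouse, and those of the same mouse and group were summed, which left 28 samples. Ranges and overlaps between groups are over these sums unless single libraries are named. Fusion mice are numbered 1 to 6, so that mouse 2 is the same animal in every tissue. The fetal titles hold 2 stems with a number for each fetus, and what the stems stand for was not given in the sources used here.

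Notch receptors are cut when a ligand on a neighboring cell pulls on them, and the freed inner part enters the nucleus, where it turns the DNA-binding protein RBPJ from a repressor into an activator. Hes and Hey genes are its best known targets. In vessels, Dll4 and Notch4 are known from endothelial cells, most of all of arteries and sprouts, and Notch3, Jag1 and Heyl from vessel walls and their mural cells (pericytes and smooth muscle). In the developing nephron, Notch2 and Jag1 are known for patterning the proximal segments.

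Promoter sequence from RefSeq (GRCm38.p6) was at hand for 7 of the 10 genes, all but Hes1, Hey1 and Heyl. The sequences given here are those before the RefSeq transcription start of Dll4 and Notch4, the pair of genes whose levels ran most alike over the samples, and, reaching 3 bases past that start, of Hey2, the member with the letters of an RBPJ site. Gene coordinates given below are from GENCODE M21, whose outermost starts can differ. By those coordinates the Notch4 sequence reaches into the gene and the Hey2 sequence reaches further into it. Capitals mark matches, on either strand, to the RBPJ motif GTGGGAA or to CNGGAAG, a short form of the motif of ETS factors, which are common in endothelial cells. The sequences read 5′ to 3′ along the gene.
Dll4, chr2:119325534-119325783, plus strand: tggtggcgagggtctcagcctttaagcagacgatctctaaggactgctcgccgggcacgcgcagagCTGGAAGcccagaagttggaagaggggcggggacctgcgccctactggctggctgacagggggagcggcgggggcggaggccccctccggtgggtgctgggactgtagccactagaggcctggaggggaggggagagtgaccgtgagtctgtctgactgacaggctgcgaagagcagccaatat
Notch4, chr17:34564045-34564294, plus strand: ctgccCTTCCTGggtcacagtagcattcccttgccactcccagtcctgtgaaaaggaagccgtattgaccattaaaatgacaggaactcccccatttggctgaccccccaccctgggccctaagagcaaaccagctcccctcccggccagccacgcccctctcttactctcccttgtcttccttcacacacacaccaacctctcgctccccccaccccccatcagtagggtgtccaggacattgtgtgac
Hey2, chr10:30842781-30843033, minus strand: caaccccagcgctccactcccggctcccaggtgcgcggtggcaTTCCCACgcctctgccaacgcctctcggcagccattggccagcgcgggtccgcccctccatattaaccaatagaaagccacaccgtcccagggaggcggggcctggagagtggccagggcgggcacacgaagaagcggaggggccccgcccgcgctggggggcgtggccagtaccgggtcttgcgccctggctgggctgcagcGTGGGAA
In windows reaching from 250 bases before to 50 bases after the start, the RBPJ letters stood in 6.38% of 32851 promoters, and Hey2 held them at 2 places, starting at positions -207 and -4, with none in the other 6 genes. The ETS letters stood in 31.89% of promoters and in 2 of the 7 genes, at -184 in Dll4 and at -245 in Notch4. CACGTG, the core motif bound by TFE3 and other factors of its family, stood in 7.15% of promoters and in none of the 7. A match shows letters only, and was not tested as a binding site.

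The libraries held 80205573 to 121415057 counts each, and the lowest count of any of the 10 genes in any of the 28 samples was 85 (Hey1 in a non-transformed kidney). Levels are given as CPM, counts scaled to the library total with TMM factors over all samples. The melanocytic and fusion-response genes Gpnmb, Pmel, Mlana and Ctsk summed to 2922 to 7363 CPM in the tumor samples and to 6.356 to 7.099 CPM in control kidneys. The non-transformed kidneys of fusion mice held 116.1 to 459.1 CPM of them, with Gpnmb called higher than in control kidney, so they were not free of this response. Several samples held RNA of other tissue. The kidney tumors of mice 4 and 5 had 9134 and 7957 CPM of 8 proximal tubule markers, against 720.3 to 3311 in the other 4 and 12500 to 13930 in control kidneys. The kidney tumors of mice 2 and 4 had 828 and 1318 CPM of 5 skeletal muscle markers, against 38.84 to 225.6 in the other 4. The retro-orbital tumor of mouse 5 had 1208 CPM of these markers, against 155.7 to 227.3 in the other 3. All brain tumors held neuron RNA, with 784.5 CPM of 6 neuron markers in mouse 2 and 96.33 and 111 in mice 1 and 4, against 1.608 to 32.14 in kidney tumors. Their 6 glia markers summed to 35.36, 1137 and 396.8 CPM in mice 1, 2 and 4, against 26.71 to 91.34 in kidney tumors. Dysmorphic fetal kidneys had 33820 to 91140 CPM of 5 skeletal muscle markers, against 12490 to 15650 in the control fetal kidneys. Fits without 4 of these tumors are given beside some of the results. The 4 were the kidney tumors of mice 4 and 5, the retro-orbital tumor of mouse 5 and the brain tumor of mouse 2.

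**Figure D1:**
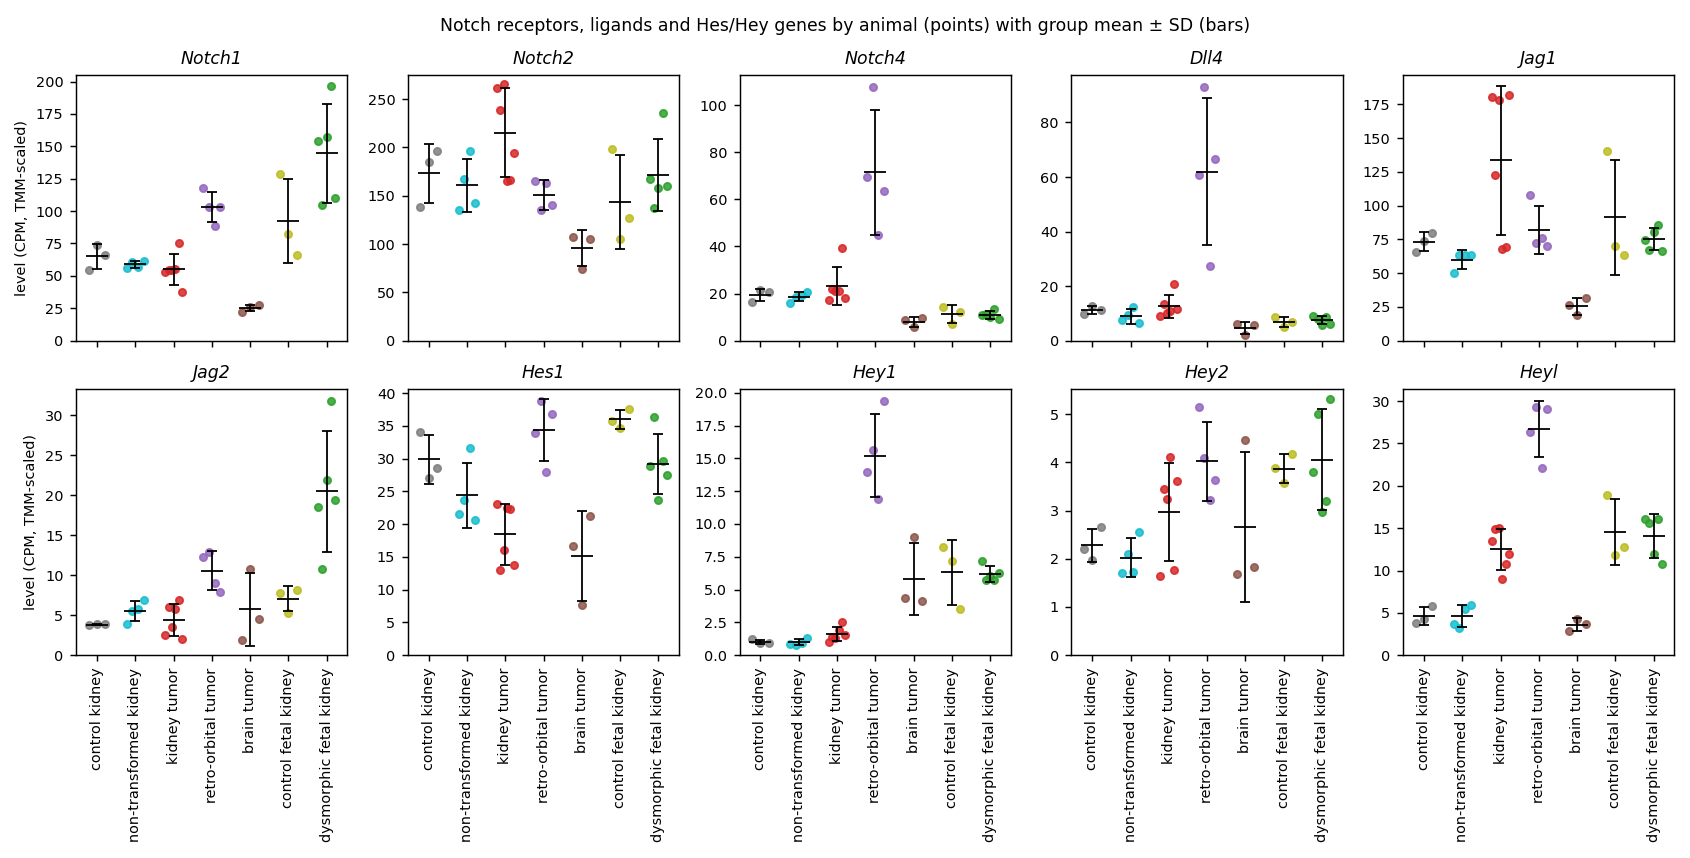
Level of each gene in CPM (linear axis from 0) in the 7 groups, with each animal a point and bars for the group mean ± SD (n = 3 to 6 animals). Notch4, Dll4, Hey1 and Heyl stood highest in the retro-orbital tumors without overlap with any other group, Jag1 split the kidney tumors into 4 high and 2 low animals, and Jag2 was highest in the dysmorphic fetal kidneys.

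In the kidney tumors, Heyl was the member that rose against both adult kidney groups. Heyl (chr4:123233556-123249875, GRCm38) encodes a Hey-family repressor known from vascular smooth muscle and pericytes. Its level was 3.802, 4.301 and 5.766 CPM in the 3 control kidneys, and 3.717, 3.273, 5.5 and 5.917 CPM in the non-transformed kidneys of mice 1, 3, 4 and 5. In the 6 kidney tumors it ran from 8.987 over a median of 12.68 to 15.05 CPM. Summed per mouse, every kidney tumor lay above every kidney without tumor, and mice 4 and 5, whose tumors held the most tubule RNA, were the lowest 2 of the 6. Single libraries did not separate in this way. The 2 tumor libraries of mouse 4 had 5.061 and 12.21 CPM of Heyl, the first within the range of the kidneys without tumor, and those of mice 2 and 3 had 21.27 and 9.834, and 8.602 and 20.82 CPM. The log2 fold change was 1.42 (SE 0.24, adjusted p = 0.00579, edgeR) against control kidney and 1.40 (SE 0.23, adjusted p = 0.00383) against non-transformed kidney. Within each of the 4 mice with both tissues, the tumor held 1.63 to 4.6 times the Heyl of the kidney, but with the mouse as a block over these 4 pairs the adjusted p was 0.0982. Without the tumors of mice 4 and 5 the log2 fold changes were 1.59 and 1.53.

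Against control kidney 1 of the 10 members was called, Heyl, and 0 were called lower. Over all 23578 genes the share called was 19.0%, with 12.5% higher and 6.51% lower. Against non-transformed kidney 2 members were called, Jag1 and Heyl, both higher, beside 17.1% of 21930 genes, 12.1% higher and 5.02% lower. The ranges of these 2 genes were the members' ranges that did not overlap there, as for 18.2% of all genes. The members' shares were thus not set apart from those of all genes.

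Jag1 (chr2:137081456-137116644), the Jagged ligand of nephron patterning and vessel walls, had 65.78, 73.74 and 79.84 CPM in control kidneys and 49.93, 63.43, 63.31 and 63.72 CPM in the non-transformed kidneys of mice 1, 3, 4 and 5. In the kidney tumors of mice 1, 2, 3 and 6 it had 180.8, 123.1, 178.2 and 182.3 CPM. In those of mice 4 and 5 it had 67.75 and 69.21 CPM, within the range of the control kidneys. The 2 low tumors were thus the 2 with the most tubule RNA, whose part in the level was not tested. The 2 libraries of kidney tumor from mouse 2 also differed, with 196.8 and 60.76 CPM. Jag1 rose against non-transformed kidney (log2 fold change 1.10, SE 0.31, adjusted p = 0.038). That call was lost without mouse 1, 2, 3 or 6 (log2 fold changes 0.91, 1.11, 1.04 and 0.98, with adjusted p = 0.156, 0.0618, 0.148 and 0.0719) and with the mouse as a block (0.84, adjusted p = 0.239). Against control kidney Jag1 was at 0.85 (SE 0.37, adjusted p = 0.13), and it was called without mouse 5 (adjusted p = 0.0496). Without the tumors of mice 4 and 5 it was called at 1.19 (adjusted p = 0.00222) there and at 1.40 (adjusted p = 0.000409) against non-transformed kidney.

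Hes1 (chr16:30064384-30067796), the Hes repressor that many tissues use, pointed down. It had 34.05, 26.97 and 28.64 CPM in control kidneys and 13 to 23.09 CPM (median 19.2) in kidney tumors, with no overlap. The log2 fold change was -0.71 (SE 0.22, adjusted p = 0.0531), just outside the threshold. It was a call with RLE scaling (adjusted p = 0.0442), DESeq2 (0.0185), halved counts (0.0484), the joint fit (0.0347) and single libraries (0.00258), and also without mouse 1 (-0.77, adjusted p = 0.0479), without mouse 5 (-0.75, adjusted p = 0.0458) and without both tubule-rich tumors (-0.85, adjusted p = 0.0243). In all, it was called in 2 of 9 edgeR fits that left out 1 animal (-0.77 to -0.61, adjusted p up to 0.164). It was called in 6 of the 8 other settings (adjusted p up to 0.0705). Of the 10 members, 2 had ranges that did not overlap between these groups (Heyl and Hes1), as had 29.8% of all genes. Against non-transformed kidney Hes1 was at -0.45 (SE 0.22, adjusted p = 0.179).

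The receptors did not pass the test between kidney tumor and either kidney group. Notch2 (chr3:98013527-98150361), the receptor known for the proximal nephron, had 165.5 to 265.9 CPM in the tumors (median 216.5), 138.3 to 196.5 CPM in control kidneys and 135.3 to 196.6 CPM in non-transformed kidneys. Its log2 fold change against non-transformed kidney was 0.37 (SE 0.19, adjusted p = 0.188), and 0.52 (adjusted p = 0.0452) without the tumors of mice 4 and 5. Notch1 (chr2:26457903-26516663), the most widely used receptor, had 37.76 to 75.14 CPM in the tumors and 54.81 to 73.85 CPM in the control kidneys. Notch4 (chr17:34564268-34588503), the endothelial receptor, ran from 17.39 over a median of 20.96 to 39.26 CPM in the tumors, the highest being mouse 5, and from 16.57 to 21.31 CPM in the control kidneys. Dll4, Jag2, Hey1 and Hey2 also did not pass, with log2 fold changes against control kidney of 0.15 (SE 0.27), 0.19 (SE 0.39), 0.63 (SE 0.33) and 0.36 (SE 0.33).

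Mural and endothelial markers were measured beside these genes. Of 10 mural markers, 3 were called higher in kidney tumor than in control kidney (Pdgfrb, Rgs5 and Mcam) and none lower, and their sum was 342.6 to 790.2 CPM in tumors and 376.6 to 491.9 CPM in controls. Of 10 endothelial markers edgeR called 0, with 3 at an unadjusted p under 0.05 and sums of 471.7 to 826.4 and 657.8 to 800.1 CPM. Of 6 arterial endothelial markers, Unc5b was called higher. Log2 fold changes lay above 0 for 2 of the 6 arterial, 4 of the 10 endothelial and 7 of the 10 mural markers. The list medians were -0.19, -0.05 and 0.74. Against non-transformed kidney, endothelial Cdh5, arterial Unc5b, mural Pdgfrb and Mcam, and Adgre1 of 6 leukocyte markers were called higher, and podocyte Podxl lower. There 4 of 6 arterial, 5 of 10 endothelial and 7 of 10 mural markers lay above 0, with list medians of 0.21, -0.07 and 0.31. The nephron progenitor markers Eya1 and Cited1 and the glia marker Mbp were called higher against both kidney groups. Of 5 nephron progenitor markers tested, only these 2 had log2 fold changes above 0. The list medians were -0.61 against control and -0.44 against non-transformed kidney. Of the markers in these lists, the nephron progenitor marker Six2 was at 0 in all control and all non-transformed kidneys, and no other was at 0 in all samples of 1 of these 3 groups. Per 1000 CPM of the 10 mural markers, Heyl was at 17.92 to 34.76 in kidney tumors. In control and non-transformed kidneys Heyl was at 8.928 to 11.72 and 6.929 to 11.24. Jag1 was at 120.6 to 532.1 in kidney tumors, 154.5 to 195.8 in control and 74.62 to 185.4 in non-transformed kidneys. The part of the markers' tissues in the Heyl and Jag1 levels was not tested. In bulk tissue a change in the number of cells of a type and a change of RNA per cell cannot be told apart.

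Between non-transformed kidney of fusion mice and control kidney, edgeR called 0 of the 10 members, beside 0.00952% of 21019 genes. Jag2 was the member with an unadjusted p under 0.05 (log2 fold change 0.54, SE 0.22, adjusted p = 0.403), and DESeq2 also called 0. The ranges of Jag1 and Jag2 did not overlap between these groups, as for 11.5% of all genes. The non-transformed kidneys had 5694 to 7656 CPM of 8 distal nephron and collecting duct markers, against 6020 to 6754 in control kidneys.

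The retro-orbital tumors held more RNA of most members than the kidney tumors. Of the 10 genes 7 rose, namely Hey1, Dll4, Notch4, Jag2, Heyl, Notch1 and Hes1, and none was called lower. Over all 22136 genes the share called was 17.7%, with 8.26% higher and 9.45% lower. Of all genes called, 1828 of 3919 were higher, and 2205 of 3813 with upper quartile scaling, which moved the median log2 fold change of all genes from -0.09 to 0.03. The median over the 10 members was 0.97, and the same number of members was called with that scaling. The ranges of 8 members did not overlap between the groups, as for 16.1% of all genes.

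Among the ligands, Dll4 (chr2:119325784-119335962), the endothelial Delta-like ligand of arteries and sprouts, had 60.81, 93.03, 27.33 and 66.74 CPM in the retro-orbital tumors of mice 2, 3, 5 and 6. The kidney tumors had 8.959 to 20.79 CPM, with a median of 11.19. The lowest retro-orbital tumor and the highest kidney tumor were both from mouse 5, and the groups did not overlap. The log2 fold change was 2.27 (SE 0.33, adjusted p = 0.00248), and 2.77 (adjusted p = 0.000404) without the tubule-rich tumors. Within mice 2, 3, 5 and 6 the retro-orbital tumor held 4.51, 9.19, 1.31 and 5.76 times the Dll4 of the kidney tumor.

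Jag2 (chr12:112907819-112929776), a second Jagged ligand, had 12.3, 12.94, 9.09 and 7.882 CPM in the retro-orbital tumors of mice 2, 3, 5 and 6 and 2.042 to 6.865 CPM (median 4.642) in kidney tumors. The log2 fold change was 1.22 (SE 0.35, adjusted p = 0.0394), and the call was lost without mouse 1, 2, 3, 4 or 6 (adjusted p = 0.0577, 0.11, 0.172, 0.0529 and 0.0679, at 1.04 to 1.34). Jag1 went the other way, with 108.2, 72.51, 76.41 and 70.38 CPM in retro-orbital tumors against a median of 150.6 CPM in kidney tumors. Its log2 fold change was -0.74 (SE 0.33, adjusted p = 0.147), and -0.95 (adjusted p = 0.0222) without the tubule-rich tumors.

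Among the receptors, Notch4 had 69.6, 107.9, 44.74 and 63.5 CPM in the retro-orbital tumors of mice 2, 3, 5 and 6. The order over these mice was that of Dll4 except for mice 2 and 6, which changed places. The log2 fold change was 1.60 (SE 0.28, adjusted p = 0.0054), and 2.07 (adjusted p = 0.00116) without the tubule-rich tumors. Notch1 had 117.5, 103.2, 88.8 and 103.5 CPM, all above the highest kidney tumor (log2 fold change 0.88, SE 0.17, adjusted p = 0.00715). Without mouse 2 its adjusted p was 0.0504 at 0.82. Notch2 had 165, 135.1, 163 and 140.5 CPM, all below the lowest kidney tumor per mouse at 165.5, with a log2 fold change of -0.54 (SE 0.17, adjusted p = 0.0528). Single kidney tumor libraries of mice 4 and 2 lay lower, at 128 and 140.1 CPM of Notch2. The gene was called without mouse 4 (-0.55, adjusted p = 0.0394), by DESeq2 (-0.49, adjusted p = 0.0439) and without the tubule-rich tumors (-0.67, adjusted p = 0.0249). In edgeR fits that left out 1 mouse, Notch2 was called in 1 of 6 (-0.58 to -0.42, adjusted p up to 0.211). With the mouse as a block it was at -0.48 (adjusted p = 0.0985).

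Among the targets, Hey1 (chr3:8663359-8667256), a Hey repressor of arterial endothelium, had 13.93, 15.6, 11.92 and 19.34 CPM in the retro-orbital tumors of mice 2, 3, 5 and 6. The kidney tumors had 0.9802 to 2.553 CPM with a median of 1.472, and the same-mouse ratios were 9.9, 12.2, 4.67 and 12.6. This was the largest change of the 10 genes in this comparison, with a log2 fold change of 3.21 (SE 0.28, adjusted p = 0.000822). Heyl had 26.39, 29.25, 22.13 and 29.09 CPM (log2 fold change 1.06, SE 0.17, adjusted p = 0.00382), and was 1.76 to 2.44 times higher than in the kidney tumor of the same mouse. Hes1 had 33.93, 38.73, 27.98 and 36.75 CPM (log2 fold change 0.87, SE 0.20, adjusted p = 0.0172), a call lost without mouse 2, 3 or 6 (0.80, 0.76 and 0.77, with adjusted p = 0.0673, 0.0997 and 0.0795). Hey2 (chr10:30832359-30842801), the member with the RBPJ letters at its start, had 3.214 to 5.137 CPM against 1.642 to 4.102 CPM and did not pass (0.41, SE 0.29, adjusted p = 0.352).

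The calls for Hey1, Heyl, Dll4 and Notch4 stood without any mouse in turn (6 of 6 fits). With the mouse as a block over the 4 pairs, 3 members were called, Hey1 (3.23, adjusted p = 0.0166), Heyl (1.05, adjusted p = 0.0206) and Hes1 (1.13, adjusted p = 0.0455). The other 4 kept their direction at adjusted p = 0.0552 for Notch1, 0.056 for Dll4, 0.0635 for Jag2 and 0.0637 for Notch4. All 7 were higher in the retro-orbital than in the kidney tumor in 4 of 4 mice. Leaving out the tubule-rich tumors gave 9 called members, with Jag1 and Notch2 lower.

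**Figure D2:**
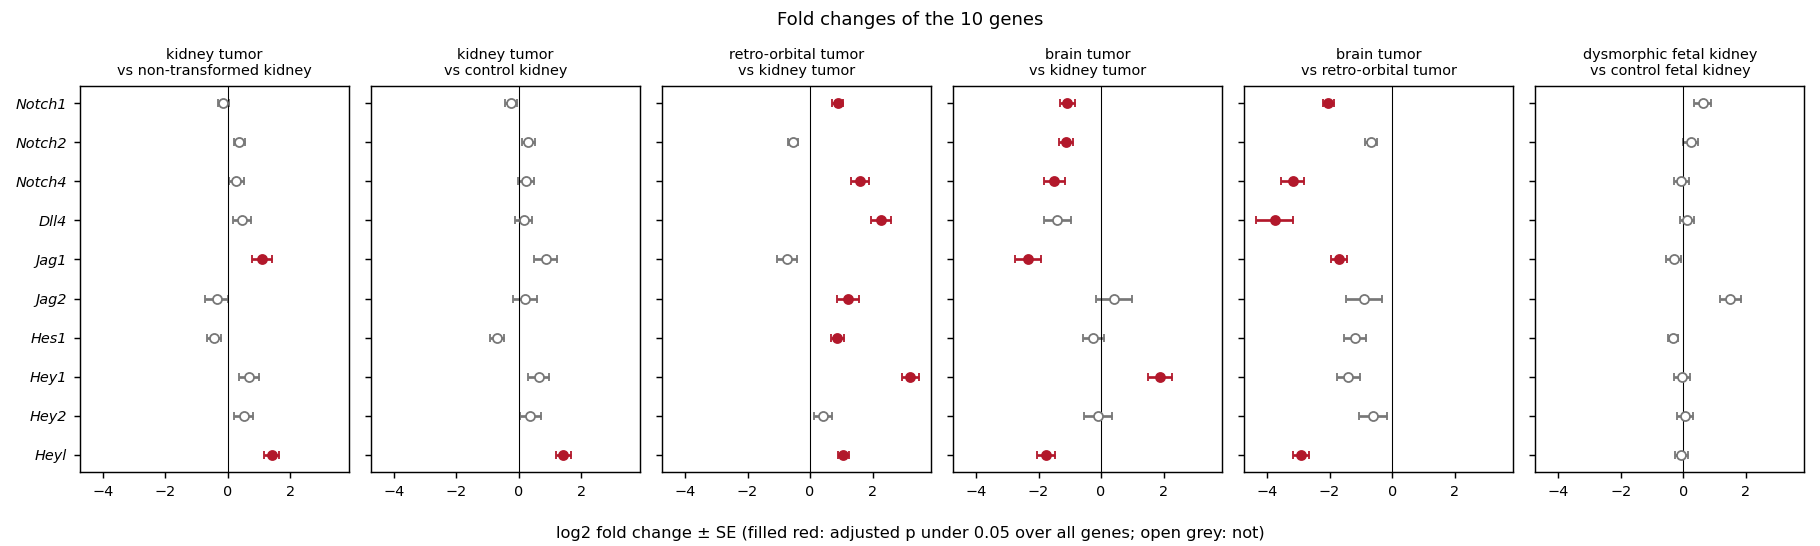
Log2 fold change ± SE of each gene in 6 comparisons from the edgeR fits, filled where the adjusted p over all genes was under 0.05. Against kidney tumor, 7 genes were filled to the right of 0 in retro-orbital tumors, while in brain tumors Hey1 stood to the right and Notch1, Notch2, Notch4, Jag1 and Heyl to the left; the retro-orbital and brain comparisons share the kidney tumor samples.

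Vessel markers moved with the retro-orbital tumors. Of 10 endothelial markers 7 were called higher than in kidney tumor and none lower, with sums of 1140 to 1806 against 471.7 to 826.4 CPM. Cdh5, the cadherin of endothelial junctions, rose by 2.27 (SE 0.22, adjusted p = 0.00116) and Pecam1 by 1.46 (SE 0.16, adjusted p = 0.00139) on the log2 scale. Of 6 arterial markers 4 were called higher (Efnb2, Unc5b, Gja4 and Gja5), and of 10 mural markers 6, with mural sums of 1044 to 1469 against 342.6 to 790.2 CPM. Of the nephron progenitor markers Meox1 was called higher and Eya1 lower, and of the fusion-response genes Ctsk was called higher. Their part in the members' levels was not tested.

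Set against the endothelial sum, the members did not all follow it. Per 1000 CPM of the 10 endothelial markers, Hey1 was at 7.713 to 11.28 in retro-orbital tumors and 1.839 to 3.089 in kidney tumors, with no overlap. Dll4 was at 23.98 to 53.54 against 13.42 to 25.16, with a small overlap. Notch4 was at 37.04 to 62.12 (median 38.9) against 26.03 to 47.5, so that most retro-orbital tumors lay within the kidney tumor range. Heyl was at 14.61 to 19.42 against 11.16 to 31.91, Notch1 at 59.39 to 77.92 against 66.05 to 114.9, Hes1 at 18.79 to 24.55 against 20.31 to 43.32, and Jag2 at 4.599 to 7.977 against 3.573 to 9.354, so that these 4 were not higher per endothelial marker. Jag1 was at 41.06 to 67.05 against 83.75 to 377.8 and Notch2 at 77.78 to 143 against 200.8 to 563.8, both lower without overlap. The endothelial sum itself was higher in retro-orbital tumors, at 1140 to 1806 against 471.7 to 826.4 CPM. A gene whose level did not rise therefore falls by this ratio. The share of all genes whose ratios do not overlap was not counted. Per 1000 CPM of the 10 mural markers, Heyl was at 19.36 to 24.11 in retro-orbital and 17.92 to 34.76 in kidney tumors. These ratios are descriptions without a test.

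**Figure D3:**
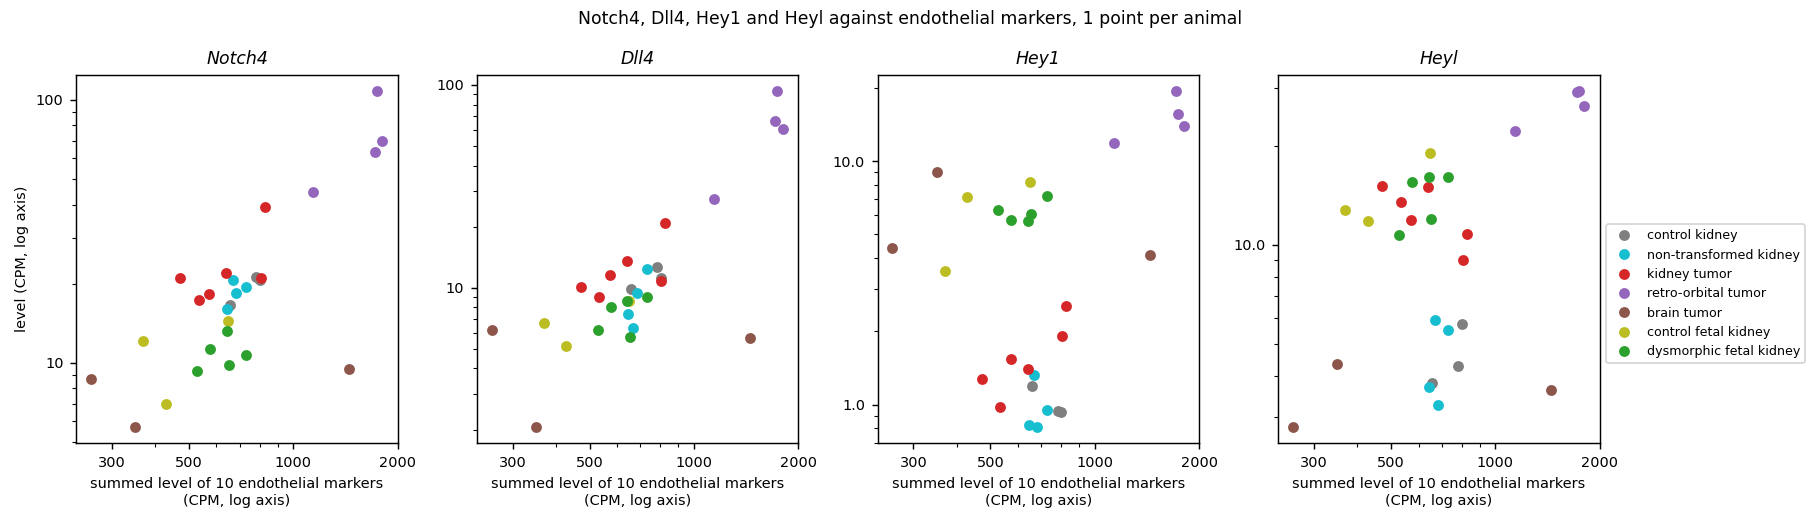
Level of Notch4, Dll4, Hey1 and Heyl (CPM, log axis) against the summed level of 10 endothelial markers (CPM, log axis), 1 point per animal, colored by group. Retro-orbital tumors lay at the upper right in every panel; for Hey1 the fetal kidneys lay above the adult kidney and kidney tumor samples of a like endothelial sum.

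In the brain tumors most members stood below the kidney tumors while Hey1 stood above them. Of the 10 members 6 were called, 1 higher and 5 lower, beside 8.74% of 23391 genes, 4.54% higher and 4.2% lower. Hey1 had 4.391, 8.985 and 4.126 CPM in mice 1, 2 and 4 (log2 fold change 1.90, SE 0.38, adjusted p = 0.023), and 4.48, 6.39 and 2.16 times the level in the kidney tumor of the same mouse. Jag1 had 26.38, 18.97 and 31.32 CPM, under every sample of all other groups, with a log2 fold change of -2.34 (SE 0.42, adjusted p = 0.0169). Heyl had 2.807, 4.336 and 3.64 CPM (-1.76, SE 0.28, adjusted p = 0.0121). Neither gene's range overlapped with that of the kidney tumors.

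All 3 receptors were lower in brain tumors. Notch1 had 22.47, 26.05 and 27.42 CPM in mice 1, 2 and 4 (-1.08, SE 0.23, adjusted p = 0.0275), the lowest 3 of the 28 samples. Notch2 had 107.2, 73.88 and 105.4 CPM (-1.13, SE 0.22, adjusted p = 0.0224). Notch4 had 8.672, 5.725 and 9.518 CPM (-1.50, SE 0.34, adjusted p = 0.0319). Dll4 had 6.186, 2.066 and 5.674 CPM, below every kidney tumor, at -1.41 (SE 0.43, adjusted p = 0.0719). The ranges of 7 members did not overlap, as for 15.0% of all genes.

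These calls rest on few tumors. Without mouse 1, 0 members were called (adjusted p = 0.0557 to 0.0898 for the 6) and without mouse 2, 1 member, Heyl. Without mouse 3, Notch4 and Hey1 were lost (adjusted p = 0.0531 and 0.0512), and without mouse 4, Notch4 and Notch1 (adjusted p = 0.0669 and 0.0719). With the mouse as a block over 3 pairs edgeR called 0 members and 0 genes, while the members' log2 fold changes stayed near those above (1.99 for Hey1, -2.20 for Jag1 and -1.78 for Heyl). Without the brain tumor of mouse 2 and the 2 tubule-rich kidney tumors, 3 members were called (Jag1, Notch2 and Heyl), with Hey1 at 1.76 (adjusted p = 0.0507), Notch1 at -0.95 (adjusted p = 0.0903) and Notch4 at -1.06 (adjusted p = 0.0727). The mural sum was 206.4 to 355.1 CPM in brain tumors and the endothelial sum 260.5, 350 and 1446 CPM in mice 1, 2 and 4, and of 10 markers each, 2 mural and 2 endothelial ones were called lower. The neuron markers Rbfox3 and Stmn2 and the glia marker Mbp were called higher. Their part in the members' levels was not tested.

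Against the retro-orbital tumors, the brain tumors had lower levels of 5 members, beside 1.73% of 21037 genes called and 1.34% called lower. These were Dll4 (-3.76, SE 0.58, adjusted p = 0.0331), Notch4 (-3.19, SE 0.38, adjusted p = 0.0212), Heyl (-2.91, SE 0.26, adjusted p = 0.013), Notch1 (-2.05, SE 0.17, adjusted p = 0.013) and Jag1 (-1.70, SE 0.26, adjusted p = 0.0312). Hey1, at 4.126 to 8.985 against 11.92 to 19.34 CPM, was at -1.40 (SE 0.37, adjusted p = 0.0961). The ranges of 8 members did not overlap, as for 18.9% of all genes. Without mouse 2, 3 or 6, 0 members were called, at adjusted p = 0.0548 to 0.154 for these 5, and Jag1 was also lost without mouse 5 (-1.73, adjusted p = 0.0634) and without the tumors richest in other tissue (-1.57, adjusted p = 0.0805). Of 10 endothelial markers 6 were called lower in brain tumors (Pecam1, Egfl7, Cdh5, Tie1, Erg and Emcn, with a list median of -2.49), of 6 arterial markers Gja5, and of 10 mural markers 4. Their part in the members' levels was not tested.

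In the fetal kidneys no member passed the test, beside 2.67% of 22690 genes, and 2.4% called higher. By edgeR 2 had an unadjusted p under 0.05, and DESeq2 called 1, Jag2. Jag2 had 7.76, 5.27 and 8.173 CPM in the control fetal kidneys and 18.59, 10.73, 21.91, 31.75 and 19.41 CPM in the dysmorphic ones, with no overlap, as for 14.4% of all genes. Its log2 fold change was 1.51 (SE 0.34, adjusted p = 0.0595). Without dysmorphic fetus 2, the lowest of the 5, the value was 1.66 (adjusted p = 0.0163). That was the 1 call in 8 edgeR fits that left out 1 fetus (1.30 to 1.66, adjusted p up to 0.226). Notch1 was the other, with 129, 82.5 and 66.38 CPM against 104.5 to 196.7 CPM (0.63, SE 0.27, adjusted p = 0.24). The skeletal muscle markers Ckm, Acta1, Ttn and Tnnt3 were called higher in the dysmorphic kidneys, and Ttn alone was 3.65 to 8.23% of their counts. In the control fetal kidneys Ttn was 1.36 to 1.66% of the counts. Adgre1 was also called higher, and Podxl lower. The proximal tubule markers summed to 108.9 to 901.4 CPM in dysmorphic and 1221 to 1497 CPM in control fetal kidneys, and the podocyte markers to 75.01 to 149.2 and 225.2 to 374.4 CPM. The part of these tissues in the Jag2 level was not tested.

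The other members' ranges overlapped between the fetal groups. Heyl had 18.96, 11.79 and 12.78 CPM in control and 10.72 to 16.12 CPM in dysmorphic kidneys (-0.06, SE 0.22, adjusted p = 0.911). Hey1 had 3.551 to 8.228 against 5.701 to 7.165 CPM, and Dll4 5.14 to 8.638 against 5.719 to 8.987 CPM. Hes1 had 34.6 to 37.56 against 23.67 to 36.28 CPM (-0.32, SE 0.15, adjusted p = 0.286).

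The difference between adult kidney tumor and control kidney was set against that between dysmorphic and control fetal kidney by an interaction term. The result is called the adult minus fetal effect. Heyl was the member called, with a difference larger by 1.51 in the adult (SE 0.33, adjusted p = 0.0107), beside 8.94% of 24444 genes called and 6.87% called higher. Control fetal kidneys already held 14.51 ± 3.885 CPM of Heyl (SD, n = 3), against 4.623 ± 1.021 CPM in adult control kidneys (SD, n = 3). The fetal controls also held 12490 to 15650 CPM of the skeletal muscle markers and 650.2 to 2149 CPM of the mural markers. Adult control kidneys held 136 to 210.4 and 376.6 to 491.9 CPM of these. The part of such tissue in the Heyl level was not tested. The adult and fetal groups differ in Cre driver, tissue state and age, which cannot be told apart. Jag1 at 1.19, Jag2 at -1.30 and Notch1 at -0.87 had adjusted p = 0.137, 0.137 and 0.117.

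Each gene had its own order of the 7 groups by mean CPM. Hey1 was highest in retro-orbital tumors (15.2 ± 3.143, n = 4), then at 6.312 ± 2.451 in control fetal kidneys (n = 3), 6.196 ± 0.591 in dysmorphic kidneys (n = 5) and 5.834 ± 2.732 in brain tumors (n = 3). These 3 overlapped, and lay above kidney tumors (1.612 ± 0.5537, n = 6), control kidneys (1.027 ± 0.1499, n = 3) and non-transformed kidneys (0.9787 ± 0.2365, n = 4), which overlapped with their neighbors. Errors here are SD over animals.

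Heyl followed with retro-orbital tumors first (26.72 ± 3.329 CPM), then both fetal groups and kidney tumors (12.53 ± 2.409), which overlapped with each other, and then control, non-transformed and brain tumor samples, which overlapped again. Dll4 (61.98 ± 27.01) and Notch4 (71.45 ± 26.53) had the retro-orbital tumors first, kidney tumors, control kidneys and non-transformed kidneys next, then the fetal kidneys, and brain tumors last at 4.642 ± 2.245 and 7.972 ± 1.991 CPM. For Dll4, neighbors below the retro-orbital tumors overlapped all the way down.

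Jag1 was highest in kidney tumors (133.6 ± 55.11 CPM) and lowest in brain tumors (25.55 ± 6.215), and Notch2 likewise (215.2 ± 46.01 and 95.49 ± 18.74 CPM). Neighbors overlapped for Notch2 throughout. Jag2 and Notch1 were highest in dysmorphic kidneys (20.48 ± 7.563 and 144.5 ± 37.92 CPM), overlapping with retro-orbital tumors in both. Hes1 was highest in control fetal kidneys (35.98 ± 1.488 CPM) and Hey2 in dysmorphic kidneys (4.056 ± 1.053 CPM), with every neighbor overlapping.

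Scaled to exon length, the balance between the genes also shifted from tissue to tissue. In control kidneys the highest levels per kilobase of exon were those of Notch2 (16.1 ± 2.86 CPM per kb), Hes1 (14.7 ± 1.82) and Jag1 (12.5 ± 1.21), and the lowest that of Hey1 (0.315 ± 0.0459). In kidney tumors Jag1 (22.9 ± 9.46) and Notch2 led. In retro-orbital tumors Dll4 (16.1 ± 7.01) stood beside Hes1 (16.9 ± 2.3), Jag1 and Notch2, whereas in kidney tumors it stood at 3.28 ± 1.11. Notch4 stood at 8.86 ± 3.29 in retro-orbital tumors, above Notch1 at 7.25 ± 0.822, while in the other 6 groups Notch1 was the higher.

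**Figure D4:**
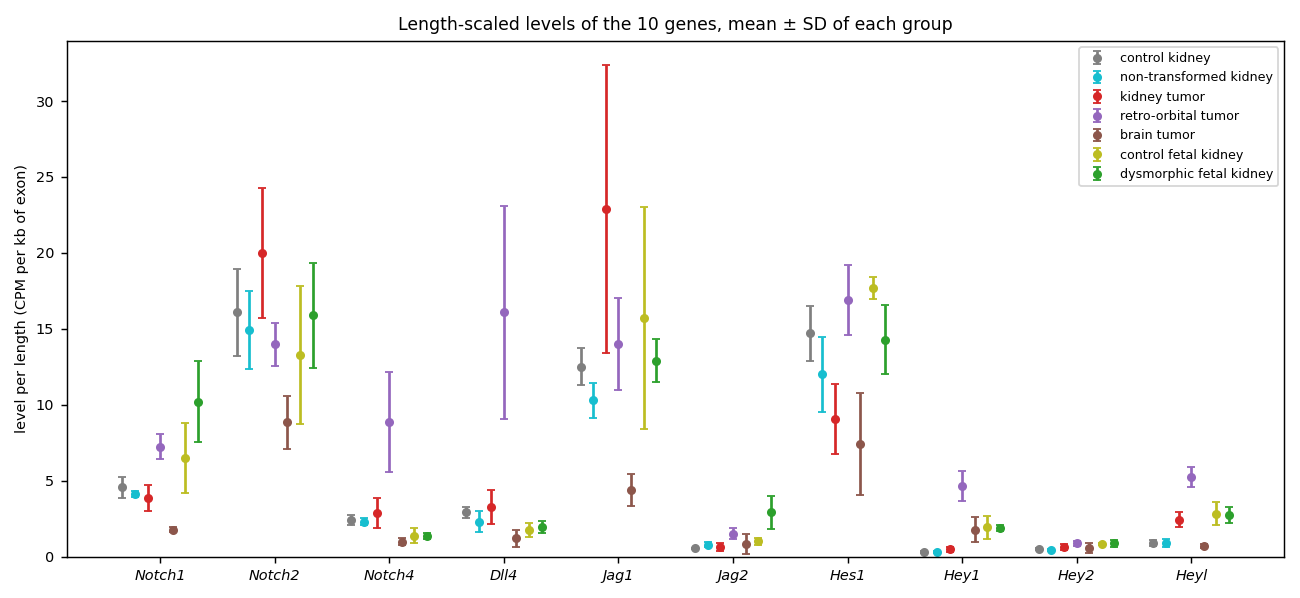
Mean level per kilobase of exon (CPM per kb, linear axis from 0) ± SD of each gene in the 7 groups (n = 3 to 6 animals). Dll4 reached 16.1 in retro-orbital tumors, in the range of Jag1, Hes1 and Notch2, and Hey2 stayed at or under 0.883 in all groups.

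Over the 28 samples, the gene most like Notch4 among 13020 expressed genes was Dll4 (Pearson r of log2 CPM 0.956, and 0.969 over the 20 adult samples), followed by Mmrn2 and Itpkb. For Dll4 it was Notch4, followed by Robo4 (0.939), a receptor of endothelial cells, and Igfbp3 (0.917). For Heyl these were Pxdn (0.924), Col15a1 and Piezo2. For Notch1 they were Adamts9 (0.939), Rcsd1 and Cdc42ep2. Notch2 and Jag1 shared Adamts1 among their 3 nearest genes, and Jag1 was among those of Notch2 (0.847), after Map3k14; the others of Jag1 were Cdk6 (0.872) and Il17rd. Jag2 was most like Dbn1 (0.916), Pik3c2b and Kif26a, Hes1 like Ets1 (0.823), Sept1 and Uaca, and Hey2 like Ednrb (0.791), Dpysl2 and Zc4h2. These values describe 28 samples that share mice and differ in tissue, and carry no test.

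A further 47 genes of the pathway were looked at, among them Notch3, other ligands, the nuclear complex, glycosyltransferases, proteases and regulators. Between kidney tumor and control kidney 4 of 43 tested rose (Notch3, Dtx3, Aph1c and Numbl) and 5 fell (Ncor1, Snw1, Numb, Itch and Spen), beside 12.5% higher and 6.51% lower of all genes, so that the count did not set the list apart. Notch3, the mural receptor, rose by 1.13 (SE 0.24, adjusted p = 0.0144) on the log2 scale, from 35.01 ± 3.269 CPM (SD, n = 3) to 77.63 ± 21.75 CPM (SD, n = 6). Numb, which holds Notch down, changed by -0.82 (SE 0.15, adjusted p = 0.00826), while its relative Numbl changed by 1.71 (SE 0.31, adjusted p = 0.00738). Aph1c, a part of γ-secretase, rose by 2.14 (SE 0.39, adjusted p = 0.00804); it has a near copy in Aph1b, so its reads are less certain. Against non-transformed kidney 5 rose (Tle1, Notch3, Dtx3, Aph1c and Numbl) and 3 fell (Snw1, Numb and Dlk2), beside 12.1% and 5.02% of all genes. The median log2 fold change of the list was 0.03 against control kidney, beside 0.05 over all genes.

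Between retro-orbital and kidney tumors 6 of 44 rose (Neurl1a, Mfng, Maml2, Adam10, Numbl and Nrarp) and 2 fell (Ncor1 and Itch), beside 8.26% higher and 9.45% lower of all genes. Nrarp, a target that feeds back on Notch, rose from 24.89 ± 8.355 CPM (SD, n = 6) to 112.4 ± 26.66 CPM (SD, n = 4), at 2.15 on the log2 scale (SE 0.26, adjusted p = 0.00141). Rbpj itself had a log2 fold change of -0.14 (SE 0.15, adjusted p = 0.54). In brain tumors Dll3 and Fbxw7 were higher and Itch and Notch3 lower than in kidney tumors, and Notch3 (-2.08, SE 0.32, adjusted p = 0.0334) was lower and Dtx1 higher than in retro-orbital tumors. In dysmorphic fetal kidneys Dlk1 (1.96, SE 0.31, adjusted p = 0.035) and Dlk2 (2.04, SE 0.37, adjusted p = 0.0382), relatives of the ligands, were higher, and none was lower. None of the list was called between non-transformed and control kidney by edgeR, where 6 had an unadjusted p under 0.05.

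**Figure D5:**
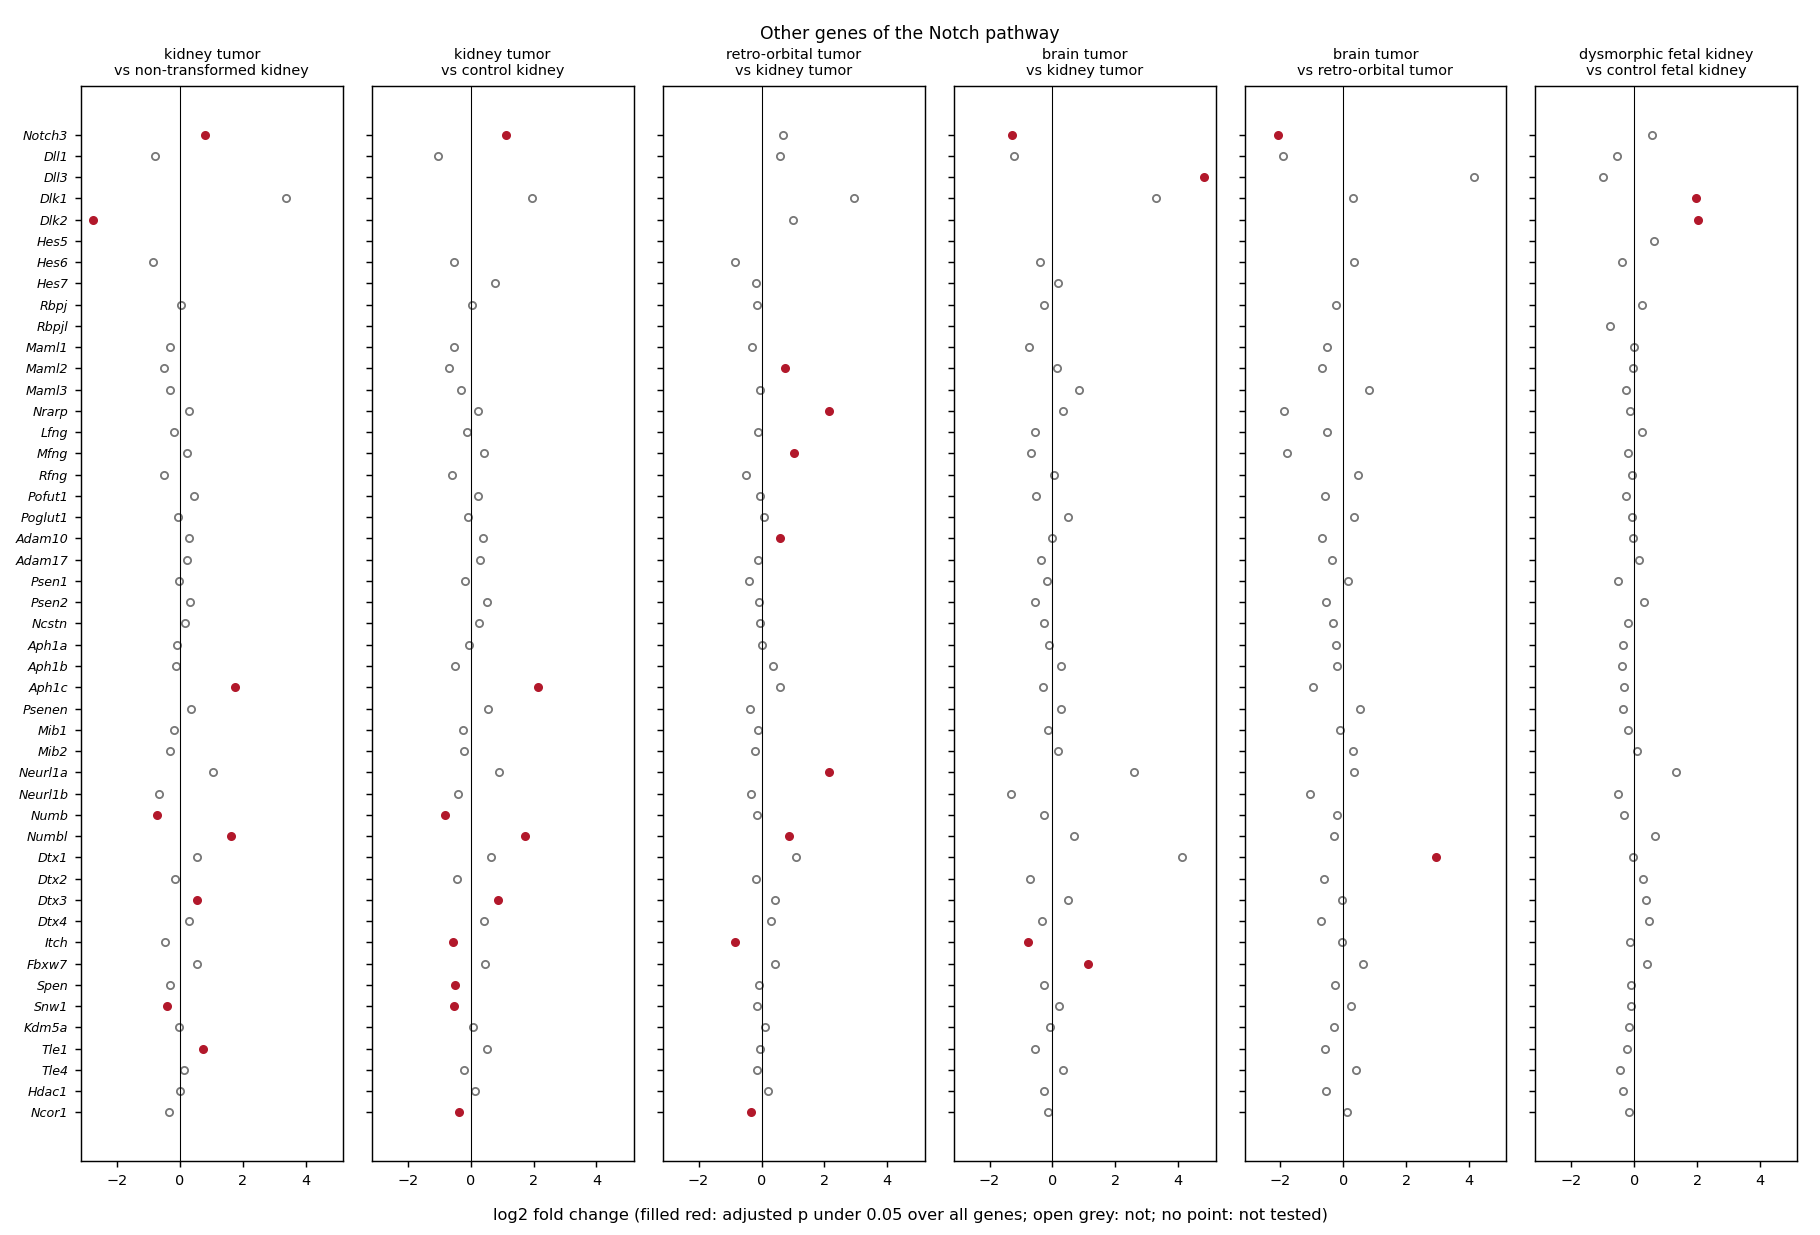
Log2 fold change of the other Notch pathway genes in 6 comparisons, filled where the adjusted p over all genes was under 0.05 and left out where not tested. Notch3, Numbl and Aph1c stood right and Numb left of 0 in kidney tumors, and Nrarp stood at 2.15 in retro-orbital tumors.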

How the data were processed

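RNA-seq was done on 36 libraries of formalin-fixed tissue (stranded total RNA kit, no ribosomal RNA depletion). The authors deposited raw counts per Ensembl gene in 2 tables, with no normalization; the submitters' processing notes name STAR 2.5.2a and mm10, and the counting program and its strand setting are not given in the sources used here. Of 53379 gene IDs, 53274 matched GENCODE M21 ignoring the version, and exon lengths and coordinates were taken from it. Between 79.04% and 84.33% of low counts (1 to 20) were even, for a reason that was not tested, and halved counts were tried.

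Libraries of the same animal and group were summed (28 samples). The mouse was read from the stem of the title. The 8 pairs of libraries summed in this way differed beyond sampling noise. For the fetuses nothing says more than the number in the title, so p-values measure the spread between these samples. For each comparison its groups alone entered a fit in edgeR 4.0.16 (quasi-likelihood test, TMM scaling, filterByExpr, R 4.3.3), with Benjamini-Hochberg adjustment over all genes and a threshold of 0.05. The standard error was the log2 fold change over the root of F. Alternatives were RLE and upper quartile scaling, no filter, DESeq2 1.42.0, halved counts, single libraries, a joint fit of all groups, the mouse as a block, the title prefix of the fetuses as a term, and leaving out each animal. Fits without the 4 tumors richest in other tissue were added after seeing the data. Tissues of the same mouse pair by the animal, and their deviations from group means correlated at -0.128 to 0.215 over 25203 genes. In simulated data with 200 genes changed 4-fold, edgeR recovered 60.5% (kidney tumor against control kidney, 23578 genes), 47.5% (retro-orbital against kidney tumor, 22136 genes) and 29.5% (brain against kidney tumor, 23391 genes).

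The members, the pathway list, the marker lists and the tests were chosen with earlier results of these data known. Named genes were the 10 members, genes of those lists, and for each member the 3 genes with the highest Pearson r of log2 CPM (prior count 0.5) among genes with a mean log2 CPM of at least 1. The genes most like Hey1 are not reported here.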

Additional observations from a re-analysis of the deposited data

Results flagged for a closer look

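Notch4 in the kidney tumor of mouse 5 stood apart from the other 5 kidney tumors, at 39.26 CPM with the next at 21.97. The same tumor had 20.79 CPM of Dll4, 826.4 CPM of endothelial markers and 5653 CPM of distal nephron and collecting duct markers, the highest of the kidney tumors in each. Jag1 in the non-transformed kidney of mouse 1 was low at 49.93 CPM, the nearest of the other 3 being 63.31. Jag1 in the retro-orbital tumor of mouse 2 was high at 108.2 CPM, with the next at 76.41. Of 40 sets of 4 to 6 samples (10 members in each of 4 groups) looked at in this way 3 held such a sample, and chance gives about 2. The Heyl difference between kidney tumor and control kidney exceeded that between dysmorphic and control fetal kidney by 1.51 on the log2 scale (SE 0.33, adjusted p = 0.0107, edgeR interaction term). Cre driver, tissue state and age also differ between these groups and cannot be told apart.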

How the results depend on the processing

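The number of members called against control kidney was 1 in kidney tumor, and 2 with RLE scaling, DESeq2 or halved counts, 4 with single libraries, 3 in the joint fit, 3 without the tumors richest in other tissue and 1 to 3 when 1 animal was left out. Against non-transformed kidney it was 2, and 0 with the mouse as a block and 1 to 2 without 1 animal. For retro-orbital against kidney tumor it was 7, and 3 with the block and 4 to 7 without 1 animal, with 4 without mouse 2. For brain against kidney tumor it was 6, and 0 with the block, 3 without the tumors richest in other tissue and 0 to 6 without 1 animal. For brain against retro-orbital tumor it was 5, and 8 with DESeq2 and 0 to 5 without 1 animal. For the fetal kidneys it was 0, and 1 with DESeq2 and 0 to 1 without 1 animal. For the adult minus fetal effect it was 1, and 2 with single libraries or without the tumors richest in other tissue and 1 to 2 without 1 animal. A brain tumor group left with 2 samples by these fits is assumed to vary like the group it is compared with.

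Members near 0 that were not called changed sign. Without the tumors richest in other tissue these were Jag2 (-0.12) and Dll4 (-0.02) in kidney tumor against control kidney, and Jag2 (-0.10) and Hes1 (0.25) in brain against kidney tumor. Heyl in non-transformed against control kidney was at -0.01 without a filter and in the joint fit, and Hey1 in the fetal kidneys at 0.04 with the title prefix as a term. Leaving out 1 animal in turn turned the sign of further values near 0, with these ranges of log2 fold changes. In kidney tumor against control kidney they were Dll4 (-0.03 to 0.26). In non-transformed kidney against control kidney they were Notch4 (-0.16 to 0.02), Heyl (-0.14 to 0.19), Hey1 (-0.24 to 0.06). In brain tumor against kidney tumor they were Jag2 (-0.35 to 0.69), Hey2 (-0.67 to 0.21). In dysmorphic fetal kidney against control fetal kidney they were Notch4 (-0.31 to 0.15), Hey2 (-0.07 to 0.15), Jag1 (-0.49 to 0.12), Dll4 (-0.05 to 0.30), Heyl (-0.19 to 0.16), Hey1 (-0.31 to 0.18). In the adult minus fetal effect they were Dll4 (-0.21 to 0.14) and Notch2 (-0.29 to 0.19), which also crossed 0 over the other settings (-0.11 to 0.03 and -0.01 to 0.27).

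Of 1064 values of single members under the alternatives (the adult minus fetal effect for Heyl alone), 945 kept their direction and side of the threshold. Counts of all genes called moved by more than 1.5 times in places. With DESeq2 they were 7070 for 4474, 6004 for 3755, 493 for 2, 5975 for 3919, 5104 for 2044, 3080 for 364, 2717 for 605 and 3712 for 2185, in the order kidney tumor against control and against non-transformed kidney, non-transformed against control kidney, retro-orbital against kidney tumor, brain against kidney and against retro-orbital tumor, dysmorphic against control fetal kidney, and adult minus fetal. The block gave 847 for 3755 and 0 for 2044. Single libraries gave 9405 for 4474, 227 for 2 and 4052 for 2044. The joint fit gave 4 for 2, 6548 for 2044, 3816 for 364 and 271 for 605, and no filter 6 for 2. Without the tumors richest in other tissue they were 7845 for 4474, 7115 for 3755, 799 for 2044, 140 for 364 and 4253 for 2185. Without 1 animal they ran, in the order above, from 1163 to 5856, 1252 to 3873, 0 to 10, 1635 to 4089, 300 to 1528, 0 to 1316, 0 to 1247 and 956 to 2954. Against control kidney 2084, 1163 and 1207 genes were called without control mouse 1, 2 or 3, so the shares of all genes given beside the members also depend on single animals. The cause was not tested.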
